A study of Arabidopsis thaliana with 6 samples.

Results

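The AINTEGUMENTA-like and PLETHORA (AIL/PLT) genes examined here are 8 loci of Arabidopsis: ANT, AIL1, PLT1, PLT2, PLT3 (AIL6), BBM (BABY BOOM, PLT4), PLT5 (AIL5) and PLT7 (AIL7). They were chosen by gene identity, as the rows of these 8 locus identifiers among the 33602 in the count files. The rule named loci and set no threshold on measured values. Transcripts were sequenced from roots of ipt1,3,5,7 plants, which carry mutations in 4 genes for isopentenyltransferases, the enzymes that start cytokinin synthesis. The tested roots came from plants aged 7 d that were moved to medium with 1 µM BAP (6-benzylaminopurine, a synthetic cytokinin) and harvested 4 h later, and the controls from plants of the same genotype and age harvested 1 h after a move to medium with the solvent DMSO. In both groups primary roots were cut below the hypocotyl, and root tips and lateral roots were removed. Each group had 3 libraries, called BAP 1 to 3 and DMSO 1 to 3. Treatment and time since transfer differed together between the groups, so that an effect of BAP and an effect of the extra hours cannot be told apart. The samples are whole root segments, in which fewer cells of a type and less RNA per cell cannot be told apart.

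AIL/PLT proteins are transcription factors with a pair of AP2 DNA-binding domains, and as a family they keep cells in a dividing, undifferentiated state. ANT supports growth of organ primordia and is a marker and regulator of the vascular cambium, the cell layer from which roots thicken, where other members of the family act as well. PLT1 and PLT2, with BBM and PLT3, maintain the stem cell niche at the root tip, where their activity depends on auxin, and PLT3, PLT5 and PLT7 act in the formation of lateral root primordia. Cytokinin promotes cambial divisions and restrains the formation of lateral roots.

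The 8 genes share a coding exon of 9 bases that the choice of members did not use. In the RefSeq annotation of TAIR10.1 a coding exon of this length was present in 148 of 27444 nuclear protein-coding genes, or 0.539%, and in 4 of 10 other genes of the AP2 subfamily. In each of the 8 genes it was the 4th coding exon, and in PLT3 it was part of 5 of 7 annotated transcripts. The sequences are shown as 1 short stretch in which all members can be laid side by side. Each line gives the coding strand 5′ to 3′, with the 9-base exon in capitals and the 18 coding bases spliced to either side of it in lower case.
ANT: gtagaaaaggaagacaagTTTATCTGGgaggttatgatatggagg
AIL1: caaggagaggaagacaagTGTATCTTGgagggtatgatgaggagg
PLT1: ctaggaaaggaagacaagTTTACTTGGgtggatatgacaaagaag
PLT2: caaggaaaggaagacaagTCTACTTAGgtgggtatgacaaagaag
PLT3: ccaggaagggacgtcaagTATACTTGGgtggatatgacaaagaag
BBM: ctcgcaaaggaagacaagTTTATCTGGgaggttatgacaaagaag
PLT5: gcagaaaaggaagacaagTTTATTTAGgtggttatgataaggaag
PLT7: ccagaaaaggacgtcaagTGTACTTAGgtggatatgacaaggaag
The 9 bases were identical in ANT and BBM and different in each of the other members. Over the whole coding sequence the most alike pairs were PLT1 with PLT2, at 81.1% identity over aligned bases, and PLT3 with PLT7, at 80.9%. ANT was nearest to AIL1 at 68.3%, and the lowest identity was 64.6%, between PLT3 and PLT5. At most 0.951% of a member's exonic words of 31 bases (in PLT3) occurred elsewhere in the nuclear genome, outside the span of that member. In ANT, AIL1, BBM and PLT5 0% did.

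The BAP libraries held 20085917 to 20127269 counts and the DMSO libraries 19957748 to 20026876. Of 20987 genes tested across the whole table with the quasi-likelihood test of edgeR, 11.6% were called higher and 11.4% lower after BAP. Calls needed a p of at most 0.05 after Benjamini-Hochberg adjustment over all genes tested, and a log2 fold change (BAP over DMSO) of 0.5 or more in size. Root identity was checked with 6 markers of differentiated root tissues, none at 0, whose summed level was 1190 to 1367 CPM (read counts scaled to a common library size) in BAP and 1964 to 2659 CPM in DMSO, with MYB36, PHO1 and NRT1.5 called lower and APL (log2 fold change 0.41 ± 0.12), CASP1 (0.19 ± 0.17) and SHR (-0.40 ± 0.08) not called. PHO1 and NRT1.5 carried most of that sum, and the other 4 markers together gave 93.2 to 110.1 CPM in BAP and 101.8 to 124.8 CPM in DMSO, which overlapped. Of 4 photosynthesis genes used as markers of green shoot tissue RBCS1A and RBCS1B were called higher, and the summed level was 19.8, 20.3 and 52.8 CPM in BAP, the highest in BAP 3, against 14.0 to 17.0 CPM in DMSO. Of the 4 mutated IPT genes IPT5 and IPT7 were called lower in BAP, IPT3 was not called, and IPT1 had too few reads to be tested.

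Of the 8 AIL/PLT genes, 7 had enough reads to be tested, and 3 of these were called, against 22.9% of all genes tested. ANT was higher after BAP, and PLT2 and PLT5 were lower. The median log2 fold change of the 7 was -0.36, where that of all genes tested was 0.00. BAP and DMSO libraries did not overlap in 4 of these genes, against 51.3% of all genes tested. The 3 calls went in both directions, and AIL1 was practically undetected.

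**Figure D1:**
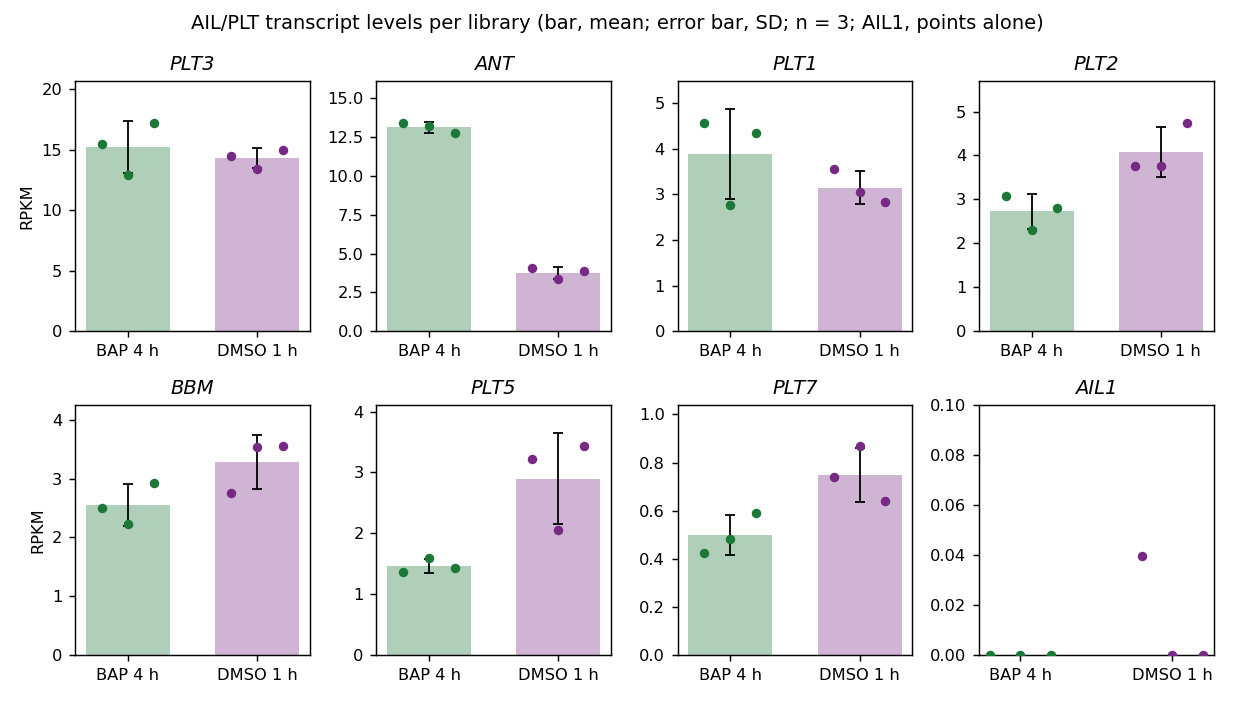
Level of each AIL/PLT gene in each library, in CPM per kilobase of exon (RPKM, vertical axes starting at 0 and scaled for each gene), with BAP 4 h left of DMSO 1 h. Points are libraries, bars are means and error bars are SD (n = 3), except for AIL1, which shows points alone. ANT stands clear of its controls at 13.1 against 3.75 RPKM, PLT2 and PLT5 lie below theirs, and the points of PLT3 overlap.

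ANT (AT4G37750, chr4:17739514-17742401, plus strand, TAIR10) is the member most used as a marker of the cambium. It had 559, 544 and 550 counts in BAP 1 to 3, against 177, 149 and 173 counts in DMSO 1 to 3. Every BAP library lay far above every DMSO library, and the BAP libraries differed little among themselves. Its level was 28.3 ± 0.756 CPM in BAP and 8.08 ± 0.813 CPM in DMSO (SD, n = 3 each). ANT was thus 3.50-fold higher after BAP (95% interval 3.02 to 4.04), a log2 fold change of 1.81 ± 0.09 as estimate ± SE (edgeR, adjusted p = 3.16e-06). It was called in every alternative fit, with log2 fold changes from 1.71 to 1.86. The 9-base exon of ANT, shown above, lies at chr4:17741106-17741114 in TAIR10.1, and the gene has a single annotated transcript, so the count does not mix isoforms known to that annotation.

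PLT5 (AT5G57390, chr5:23253459-23256450, minus strand), one of the lateral root members, moved the other way. It had 66, 76 and 71 counts in the BAP libraries, against 162, 106 and 178 in the DMSO libraries. All BAP libraries were low and close together, while DMSO 2 lay below the other two controls without reaching the BAP values. The level was 3.64 ± 0.292 CPM in BAP and 7.22 ± 1.85 CPM in DMSO, 0.505 times as high after BAP (95% interval 0.366 to 0.697). The log2 fold change was -0.99 ± 0.20 (edgeR, adjusted p = 0.00551), and PLT5 was called lower in every alternative fit that kept the fold minimum of 0.5.

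PLT3 (AT5G10510, chr5:3315529-3320202, plus strand), which overlaps in function with PLT5 and PLT7 in lateral root formation and with PLT1 and PLT2 at the root tip, had the highest counts of the family. It had 923, 764 and 1066 counts in BAP, against 902, 857 and 966 in DMSO. The highest and the lowest of the 6 libraries were both BAP libraries, and the groups overlapped. Levels were 46.9 ± 6.66 CPM in BAP and 44.1 ± 2.57 CPM in DMSO. The ratio was 1.06 (95% interval 0.901 to 1.26), a log2 fold change of 0.09 ± 0.11 (edgeR, adjusted p = 0.534). Without BAP 3 the log2 fold change was -0.0065. In TAIR10.1, though not in the deposited coordinates, the end of PLT3 overlaps AT5G10520 on the opposite strand. Reads from such an overlap cannot be told apart in libraries that do not mark strand.

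PLT7 (AT5G65510, chr5:26185829-26189413, plus strand), the member whose coding sequence is nearest to PLT3, was rare. It had 16, 18 and 23 counts in BAP, against 29, 35 and 26 in DMSO. Each BAP library was below each DMSO library, but the highest BAP and the lowest DMSO library were only a few reads apart. Levels were 0.972 ± 0.162 CPM in BAP and 1.46 ± 0.220 CPM in DMSO, with a log2 fold change of -0.58 ± 0.23. This did not pass the test (edgeR, adjusted p = 0.0843, 0.0774 to 0.272 over the alternatives), and the 95% interval of the ratio reached 0.462 at its lower and 0.971 at its upper end.

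PLT2 (AT1G51190, chr1:18977284-18980618, plus strand), a master regulator of the root tip stem cell niche, was also lower. It had 134, 99 and 126 counts in BAP, against 170, 175 and 222 in DMSO. The groups did not overlap, with BAP 2 the lowest and DMSO 3 the highest library. Levels were 6.13 ± 0.890 CPM in BAP and 9.16 ± 1.29 CPM in DMSO, 0.669 times as high after BAP (95% interval 0.528 to 0.847). The log2 fold change was -0.58 ± 0.15 (edgeR, adjusted p = 0.0155). This call rested on single libraries. Without BAP 2 the log2 fold change was -0.47 (edgeR, adjusted p = 0.0515), and without DMSO 3 it was -0.47 (edgeR, adjusted p = 0.0461), under the fold minimum. Over all alternatives the adjusted p lay between 0.00989 and 0.0515.

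PLT1 (AT3G20840, chr3:7300675-7303693, plus strand) is the closest relative of PLT2 and acts with it at the root tip. It had 209, 125 and 206 counts in BAP, against 170, 150 and 140 in DMSO. BAP 1 and BAP 3 lay above all controls and BAP 2 below them. Levels were 9.20 ± 2.33 CPM in BAP and 7.45 ± 0.871 CPM in DMSO, with a log2 fold change of 0.31 ± 0.19 that did not pass the test (edgeR, adjusted p = 0.240). Without BAP 2 it was called higher, at a log2 fold change of 0.50 (edgeR, adjusted p = 0.0255; 0.0255 to 0.552 over the alternatives). The estimates for PLT1 and PLT2 thus had opposite signs, but whether the responses of the pair differ was not tested.

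BBM (AT5G17430, chr5:5742542-5745568, minus strand), named for its ability to induce embryo formation when overexpressed and active at the root tip together with the PLT genes, had 111, 98 and 135 counts in BAP, against 128, 169 and 170 in DMSO. DMSO 1 fell among the BAP libraries, while the other two controls lay above all of them. Levels were 5.86 ± 0.813 CPM in BAP and 7.54 ± 1.05 CPM in DMSO, a ratio of 0.778 (95% interval 0.612 to 0.988). The log2 fold change of -0.36 ± 0.15 did not pass the test (edgeR, adjusted p = 0.0924).

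AIL1 (AT1G72570, chr1:27331381-27333698, plus strand) had 0 counts in each BAP library and in DMSO 2 and DMSO 3, and 1 count in DMSO 1. It could not be tested. A count of 0 allows up to 3 counts, or 0.149 to 0.150 CPM at this depth, so AIL1 was not detectable rather than shown to be absent. The limit and the intervals on counts cover counting error only.

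BAP 2 was the BAP library with the lowest CPM of PLT1, PLT2, PLT3 and BBM, but not of ANT, PLT5 or PLT7. It also had the lowest summed level of the root tip markers, with 23.8 CPM against 26.7 and 28.0 CPM in BAP 1 and BAP 3. Single markers did not all follow that order. By CPM, SMB, BRN2, FEZ, CLE40 and RGF3 were lowest in BAP 2, WOX5 and RGF2 in BAP 3, and ACR4, BRN1 and RGF1 in BAP 1. PLT1, PLT2 and BBM together gave 23.5, 16.8 and 23.3 CPM in BAP 1 to 3, against 23.2, 23.8 and 25.5 CPM in DMSO 1 to 3. A link between the marker sum and these members was not tested.

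Levels can be set against each other between genes only per length. In RPKM after BAP, PLT3 (15.2 ± 2.16) and ANT (13.1 ± 0.351) came first and overlapped. PLT1 (3.89 ± 0.985), PLT2 (2.73 ± 0.396) and BBM (2.55 ± 0.354) followed, each overlapping its neighbour in this order, and PLT5 (1.46 ± 0.117) and PLT7 (0.499 ± 0.0833) were below them without overlap. In DMSO, PLT3 stood alone at the top with 14.3 ± 0.832 RPKM. PLT2 (4.08 ± 0.573), ANT (3.75 ± 0.377), BBM (3.28 ± 0.455), PLT1 (3.15 ± 0.368) and PLT5 (2.90 ± 0.743) formed a run in which each gene overlapped the next, and PLT7 (0.749 ± 0.113) lay below. ANT was thus one of several members of like level in the controls and shared the top level with PLT3 after BAP.

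The family's make-up differed between the groups. ANT made up 32.9%, 37.2% and 30.3% of the summed RPKM of the 8 genes in BAP 1 to 3, against 12.5%, 11.1% and 11.3% in DMSO 1 to 3. The shares did not overlap, and their means were 33.4% ± 3.48 in BAP and 11.6% ± 0.738 in DMSO (SD, n = 3 each). A two-sided exact permutation test gave p = 0.1, the smallest value that 3 libraries against 3 allow. The summed level was 39.4 ± 3.48 RPKM in BAP and 32.2 ± 2.07 RPKM in DMSO (exact permutation p = 0.1, two-sided). Without ANT the sums overlapped, at 26.3 ± 3.62 RPKM in BAP and 28.5 ± 1.78 RPKM in DMSO (exact permutation p = 0.5, two-sided). PLT3 had a mean share of 38.4% in BAP and 44.4% in DMSO, while PLT2 had 6.91% and PLT5 3.74% in BAP, against 12.7% and 8.93% in DMSO. Shares are parts of a fixed total, so a higher share of ANT by itself lowers the others. The level of PLT3 was not lower, at 15.2 ± 2.16 RPKM in BAP and 14.3 ± 0.832 RPKM in DMSO.

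**Figure D2:**
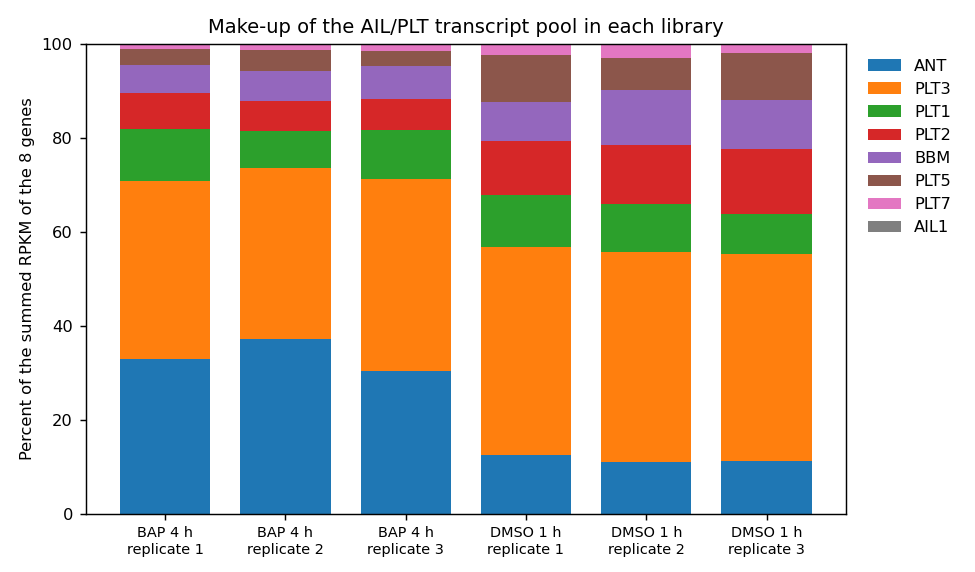
Share of each AIL/PLT gene in the summed RPKM of the 8 genes (vertical axis, percent) in each library, with the 3 BAP 4 h libraries left of the 3 DMSO 1 h libraries. ANT fills 30.3% to 37.2% of the bar in BAP and 11.1% to 12.5% in DMSO, and PLT3 is the next segment above it.

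Markers of the places where AIL/PLT genes are known to act were measured in the same libraries. Root tips had been removed. Of 10 root tip markers none was at 0 in all libraries, but CLE40 had only 1, 0 and 2 counts in BAP and 1, 0 and 1 in DMSO. The summed level of the 10 markers was 23.8 to 28.0 CPM in BAP and 29.4 to 33.0 CPM in DMSO. The median log2 fold change of the 8 tested was -0.05. None was called higher with edgeR or DESeq2 (0 with an unadjusted p under 0.05), against 11.6% of all genes tested. With both tools 1 was called lower, where 11.4% of all genes tested were with edgeR. The 1 was WOX5, a marker of the quiescent centre, with 42, 33 and 30 counts in BAP, against 173, 140 and 107 in DMSO (log2 fold change -1.92 ± 0.23, edgeR, adjusted p = 3.23e-04). WOX5 alone carried the difference between the sums, with 1.80 ± 0.344 CPM in BAP and 6.81 ± 1.72 CPM in DMSO. Without WOX5 the other 9 root tip markers gave 22.0 to 26.5 CPM in BAP and 22.6 to 26.0 CPM in DMSO, which overlapped. ACR4 was the largest part of that sum, with 189, 208 and 242 counts in BAP, against 190, 219 and 214 in DMSO. RGF1 was a small part of it, with 1, 1 and 4 counts in BAP, against 19, 8 and 13 in DMSO. The overlap of the sum therefore does not show that each marker was alike between the groups. SMB, a root cap regulator, had 87, 68 and 85 counts in BAP, against 99, 79 and 100 in DMSO, and was not called. The part of root tip cells in the lower PLT2 value was not tested.

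Lateral root markers moved as a block. All 7 listed genes were tested and called lower, where 11.4% of all genes tested were. Their log2 fold changes ran from -3.80 to -0.61 around a median of -2.48. Their summed level was 13.4 to 14.8 CPM in BAP and 71.0 to 75.2 CPM in DMSO. LBD16, a regulator of lateral root initiation, had 69, 67 and 62 counts in BAP, against 393, 379 and 393 in DMSO. PUCHI, an AP2/ERF factor of the young primordium outside the AIL/PLT group, had 51, 60 and 62 counts in BAP, against 227, 184 and 248 in DMSO. LBD29 and MAKR4 gave log2 fold changes of -3.05 ± 0.18 and -2.85 ± 0.12, GATA23 -2.35 ± 0.39 and LBD18 -0.61 ± 0.14. LBD33 was read 4, 0 and 0 times in BAP, against 15, 36 and 13 times in DMSO. PLT5 and these markers were thus lower in the same libraries, while PLT3 overlapped between the groups and PLT7 did not pass the test. The part of primordium cells in the PLT5 value was not tested.

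**Figure D3:**
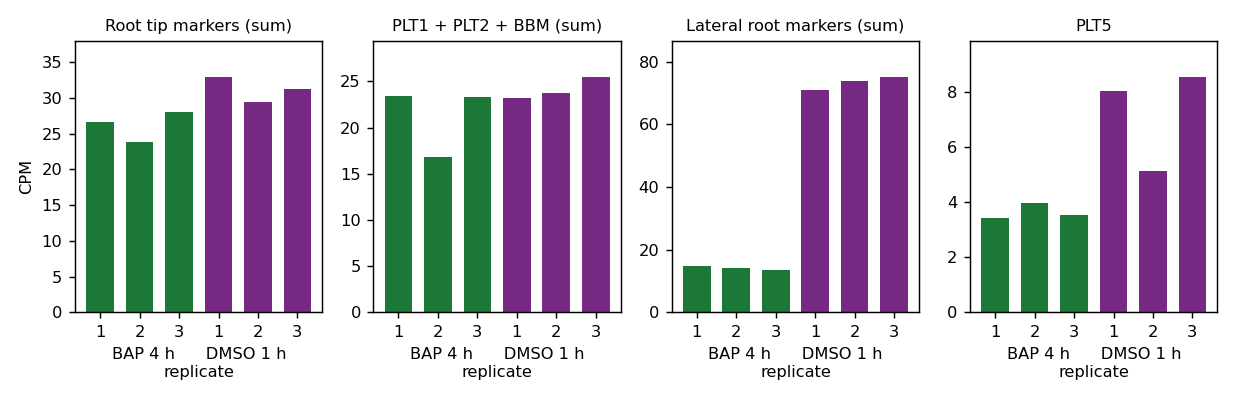
Summed level of the root tip markers, of PLT1, PLT2 and BBM together, of the lateral root markers, and the level of PLT5 (vertical axes, CPM from 0) in each library, BAP 4 h (green) left of DMSO 1 h (purple). The lateral root sum is 13.4 to 14.8 CPM in BAP and 71.0 to 75.2 CPM in DMSO, while the sum of PLT1, PLT2 and BBM is lowest in BAP 2 at 16.8 CPM.

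The other genes of the AP2 subfamily, which share the paired AP2 domains or derive from such genes, were compared next. Of 10 listed genes 9 were tested, and 1 was called higher and none lower, beside 11.6% and 11.4% of all genes tested. Log2 fold changes ran from -0.45 to 0.80 around a median of 0.17. For the count of 0 lower, edgeR gave 1 gene with an unadjusted p under 0.05 and DESeq2 also called 0. That gene, SMZ, passed the adjustment but not the fold minimum (log2 fold change -0.45 ± 0.09, edgeR, adjusted p = 0.00398). On the higher side the same held for ADAP (0.49 ± 0.11, edgeR, adjusted p = 0.00840) and TOE1 (0.33 ± 0.09, edgeR, adjusted p = 0.0197). The gene called higher was WRI4, an activator of fatty acid synthesis genes in wax production. WRI4 had 364, 303 and 354 counts in BAP, against 211, 204 and 205 in DMSO, a log2 fold change of 0.80 ± 0.09 (edgeR, adjusted p = 2.77e-04). The largest value in the subfamily outside the AIL/PLT group was thus 0.80, beside 1.81 for ANT.

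Known activators of AIL/PLT genes and proteins formed the next list. ARF5 (MONOPTEROS), ARF7 and ARF19 are auxin response factors, and the RGF peptides with their receptors RGFR1 to RGFR3 maintain PLT proteins at the root tip. Of 11 listed genes 10 were tested, none was called higher by edgeR or DESeq2 (1 with an unadjusted p under 0.05), 2 were called lower, where 11.4% of all genes tested were, and the median log2 fold change was -0.13. RGFR1 had 388, 399 and 383 counts in BAP, against 682, 613 and 675 in DMSO (log2 fold change -0.67 ± 0.08, edgeR, adjusted p = 2.85e-04). RGFR3 had 1752, 1599 and 2154 counts in BAP, against 2877, 2901 and 3142 in DMSO (log2 fold change -0.62 ± 0.10, edgeR, adjusted p = 0.00122). Neither receptor overlapped between the groups, and RGFR2 was not called. ARF5 gave 0.21 ± 0.09 (edgeR, adjusted p = 0.0947), ARF7 -0.14 ± 0.07 (0.131) and ARF19 -0.01 ± 0.09 (0.950), the last of which turned positive under upper-quartile scaling. RGF1, also one of the root tip markers and named here after its values were seen, had 1, 1 and 4 counts in BAP, against 19, 8 and 13 in DMSO, too few for the filter of the test, with a ratio of counts of 0.149 (exact binomial 95% interval 0.0517 to 0.354). In the 5 alternative fits whose filter kept it, RGF1 was called lower, with log2 fold changes from -3.49 to -2.29 (edgeR, adjusted p = 0.00755 to 0.0392).

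The cambial partners of ANT are the TDIF-PXY genes, which encode phloem-derived CLE peptides, their receptor PXY and the homeobox target WOX4, and the D-type cyclins, which drive entry into the cell cycle. Of 9 TDIF-PXY genes 8 were tested, 4 were called higher and none lower (0 lower with an unadjusted p under 0.05 in edgeR, 0 called by DESeq2). Of all genes tested 11.6% were called higher and 11.4% lower. The study had already reported CLE41, CLE42, PXL1 and WOX4 as increased from 4 h of BAP on. The list is therefore not independent of these data. Log2 fold changes on this list ran from -0.30 to 1.80 around a median of 0.50. PXY had 1721, 1637 and 1434 counts in BAP, against 902, 895 and 783 in DMSO, with a log2 fold change of 0.97 ± 0.10. WOX4 had 251, 220 and 205 counts in BAP, against 154, 130 and 127 in DMSO, with 0.80 ± 0.13. CLE41 and CLE42 were the other genes called, at 0.70 ± 0.11 and 1.80 ± 0.47. CLE42 had 26, 23 and 11 counts in BAP, against 9, 6 and 3 in DMSO. It lost its call when BAP 1, BAP 2, DMSO 2 or DMSO 3 was left out (edgeR, adjusted p = 0.0504 to 0.0618). The tested genes not called lay on both sides of 0, with CLE44 at -0.27 ± 0.23 and PXL2 at -0.30 ± 0.18. PXL1 was at 0.31 ± 0.09 and WOX14 at 0.28 ± 0.15.

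Of 10 D-type cyclin genes 9 were tested, 1 was called higher and 1 lower, with a median log2 fold change of 0.16. These counts lay near the shares over all genes tested, 11.6% higher and 11.4% lower. CYCD3;1, a cytokinin-responsive cyclin of cambial cells, had 1010, 1024 and 1001 counts in BAP, against 304, 329 and 362 in DMSO. Its log2 fold change of 1.69 ± 0.08 (edgeR, adjusted p = 2.09e-06) stood beside 1.81 ± 0.09 for ANT. CYCD1;1 had 308, 287 and 289 counts in BAP, against 566, 748 and 663 in DMSO, a log2 fold change of -1.08 ± 0.10 (edgeR, adjusted p = 9.03e-05). The close relatives CYCD3;2 and CYCD3;3 were not called.

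**Figure D4:**
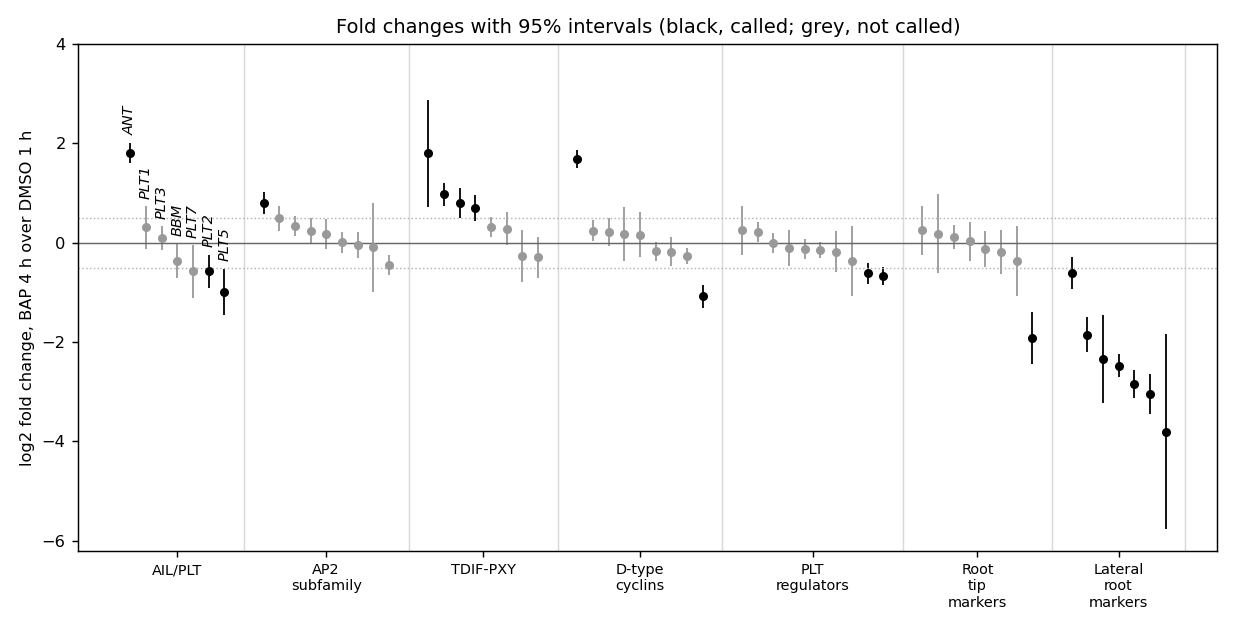
Log2 fold changes (vertical axis, BAP 4 h over DMSO 1 h) with 95% intervals for the tested genes of the AIL/PLT group and of 6 comparison lists, sorted within each list. Black points are called and grey points are not, and dotted lines mark 0.5 and -0.5. Of the 7 AIL/PLT genes ANT is called above 0 and PLT2 and PLT5 below it, and all 7 lateral root markers are called below 0.

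Across the 6 libraries the genes most like each called member were found by Pearson's r of log2 CPM, among 19804 genes whose mean reached 1 CPM. These values describe 6 points that share 2 groups. For ANT the 5 nearest were AT5G47980, AT3G29252, AT3G20370, CYP71B37 and ST4A, the highest r being 0.9999 (AT5G47980) and the 5th 0.9994 (ST4A). The pattern of ANT, 2 tight groups, was common, and 390 genes (1.97%) had an r of at least 0.99 with it. For PLT2 the nearest were MRLK (0.997), AT1G63100, SPY, AT5G50330 and AT1G30690, and 5 genes reached 0.99. For PLT5 they were ENODL16 (0.996), UGT75B2, CYP71B14, FMN/FHY and RLP54, and 6 genes reached 0.99. The patterns of PLT2 and PLT5 include the spread within their groups and were shared by far fewer genes than that of ANT.

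The 250 bases before the annotated start of the members other than ANT were read from TAIR10.1 and searched on both strands for AGATAC and AGATCT, cores bound by type-B response regulators, the transcription factors of cytokinin signalling, and for TGTCTC and TGTCGG, cores bound by auxin response factors. Windows of this length before 27443 genes held AGATAC in 9.62%, AGATCT in 5.98%, TGTCTC in 10.9% and TGTCGG in 4.16% of cases. The window of PLT5, the member with the largest decrease, is shown 5′ to 3′ on the coding strand, with matches in capitals. It lies at chr5:23256704-23256953 (minus strand).
PLT5: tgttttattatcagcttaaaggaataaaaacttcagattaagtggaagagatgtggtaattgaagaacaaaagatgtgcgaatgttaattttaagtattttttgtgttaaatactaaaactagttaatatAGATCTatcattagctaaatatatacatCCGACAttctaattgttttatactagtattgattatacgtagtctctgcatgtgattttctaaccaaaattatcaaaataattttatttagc
The PLT5 window held AGATCT, which reads the same on both strands, and TGTCGG on the reverse strand, printed as CCGACA, and the matches did not overlap. The windows of PLT3 and PLT1 each held TGTCGG, PLT3 with AGATAC as well, and those of AIL1, BBM and PLT7 each held TGTCTC, and that of PLT2 held none of the 4 words. This depended on the window length. Over 1000 bases PLT2 held AGATCT, AIL1 and PLT7 also held AGATAC, and BBM held TGTCTC 3 times. Windows of 1000 bases before all genes held AGATCT in 24.8%, AGATAC in 35.7% and TGTCTC in 39.6% of cases. A match is a description of letters and not a measured binding site.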

How the data were processed

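Total RNA from 6 root samples was sequenced from libraries made with the TruSeq RNA v2 kit, which does not mark strand, from an experiment that per the methods was done in triplicate. Per the labels and the study's methods, the authors checked reads with FastQC, aligned them with Bowtie2 to TAIR10 and counted them per gene with HTSeq. Versions, strand setting and treatment of reads that map to several places are not given in the sources used here. Reads shared by similar genes could be lost or split by such counting. The deposited values are raw counts per gene, unnormalized, with the gene span in another column.

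Counts of all genes were fitted in R 4.3.3 with edgeR 4.0.16 and its quasi-likelihood F test (filterByExpr with minimum count 10 and minimum total count 15, TMM scaling, treatment alone), with Benjamini-Hochberg adjustment over 20987 genes. The SE is the size of the log2 fold change divided by the square root of F, and its 95% interval uses the degrees of freedom of the fit. RPKM used the union exon length in TAIR10.1, in which 32835 of 33602 identifiers were found. With 19957748 to 20127269 counts per library, 0 counts allows up to 0.150 CPM before TMM scaling. Likeness used log2 of CPM after 0.5 CPM was added. Other settings tried were the Wald test of DESeq2 1.42.0, its size factors, upper-quartile scaling, 2 filters, 2 fold thresholds, a replicate block, fits without 1 library and, for the ANT share, other lengths. Members and lists were chosen with earlier results of these data known. The text names all members, every called gene of the other lists, 6 further genes whatever their value (CYCD3;1, PXY, WOX4, ARF5, ARF7 and ARF19) and the 5 genes most like each called member. Other names (APL, CASP1, SHR, IPT1, IPT3, SMB, BRN1, BRN2, FEZ, CLE40, ACR4, RGF1, RGF2, RGF3, RGFR2, SMZ, ADAP, TOE1, CLE44, PXL1, PXL2, WOX14, CYCD3;2 and CYCD3;3) were chosen after their values were seen. Tested on simulated data for this comparison (20852 genes, 196 changed), the fit called 100% of 4-fold and 94.9% of 2-fold changes, and unchanged genes made up 2.55% of calls. That setting had a far smaller share of changed genes than the 22.9% called here. Its rates do not cover changes under 2-fold, such as that of PLT2. Microarrays of the same RNA were not used here. The sequence before the start of ANT is not reported here.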

Additional observations from a re-analysis of the deposited data

How the results depend on the processing

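ANT and PLT5 kept direction and call in all 12 alternative fits at the same thresholds. Of AIL/PLT genes called higher there were 1 to 2 when 1 library was left out (2 without BAP 2, which adds PLT1), and of those called lower 1 to 2 (1 without BAP 2 or DMSO 3, which loses PLT2). A log2 fold change of at least 1 left 0 AIL/PLT genes lower, 0 AP2 subfamily genes higher, 1 TDIF-PXY gene higher, 0 PLT regulators lower, and 1099 genes higher and 1072 lower in all. With no fold minimum there were 3 AP2 subfamily genes higher and 1 lower, 2 D-type cyclins lower, and 3887 genes higher and 4061 lower. AP2 subfamily genes called higher were 2 under upper-quartile scaling and 1 to 2 without single libraries, and those lower 0 to 1. The log2 fold change of PLT3 lay between -0.0065 (without BAP 3) and 0.20 in the fits without 1 library, and that of ARF19 between -0.0872 and 0.0508, and at 0.0121 under upper-quartile scaling. The cause of these shifts was not tested. The difference in the ANT share, 21.8 percentage points, lay between 18.7 and 23.4, and 1 of these alternatives (coding length) was added after seeing the data, as were those of the marker lists. With no filter beyond 1 read, or without BAP 1, BAP 2, BAP 3 or DMSO 2, RGF1 passed the filter and was called, which gave 3 PLT regulators and 2 root tip markers lower. Its values in these fits, and the marker sums without WOX5 or without PHO1 and NRT1.5, were also added after seeing the data.

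The labels name no batch shared by equal replicate numbers. Deviations of same-numbered libraries correlated at 0.213, 0.0627 and 0.323, and of others at -0.308 to 0.0926, so pairing was not established. The replicate block gave 2474 genes higher and 2455 lower and left 1 AIL/PLT gene higher and 2 lower. Low counts limit AIL1 and PLT7.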
